A study of Mus musculus with 39 samples.

Results

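The ZIC family comprises zinc finger transcription factors, of which *Zic1*, *Zic2*, *Zic4* and *Zic5* were examined. The 4 genes were taken by symbol from a table of 47643 genes counted by bulk RNA-seq. Libraries were made from single manually isolated epiblasts of *Stat3* het intercrosses on the CD1 background. The embryos were E5.5 WT (2 libraries) and *Stat3* null (4), E6.5 WT (9) and null (8), and E7.5 WT (9) and null (3). In addition, 2 WT and 2 null epiblast stem cell (EpiSC) lines were sequenced. EpiSCs are self-renewing cells of primed pluripotency, kept here in N2B27 with FGF2, Activin A and a tankyrase inhibitor on fibronectin. Null animals carry a neomycin resistance cassette in place of some 3′ exons of *Stat3*, so the remaining exons can still give reads. Het embryos are in no group. Nothing states which epiblasts were littermates or how related the EpiSC lines are, so p-values measure the spread between these libraries.

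ZIC proteins bind DNA through a tandem array of C2H2 zinc fingers related to those of the GLI effectors of Hedgehog signalling. *Zic2* is known for its role in midline and forebrain formation, where its loss causes holoprosencephaly, and it is expressed in epiblast cells as they leave naive pluripotency. *Zic5*, its neighbour, is required for neural crest and neural tube development. *Zic1* and *Zic4* form a second neighbouring pair, known from the dorsal neural tube, cerebellum and somites.

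The members lie in 2 clusters of the mouse genome (GRCm38). *Zic2* (ENSMUSG00000061524.8, plus strand) occupies chromosome 14 from 122475435 to 122479852, and *Zic5* (ENSMUSG00000041703.7, minus strand) occupies 122456795 to 122465677 of the same chromosome. The pair is arranged head to head, with starts 9758 bases apart. The noncoding transcript 2610035F20Rik lies between them on the minus strand and starts 236 bases from the start of *Zic2*. *Zic1* (ENSMUSG00000032368.14, minus strand) occupies chromosome 9 from 91358058 to 91365810, and *Zic4* (ENSMUSG00000036972.14, plus strand) occupies 91362413 to 91389348. *Zic1* and *Zic4* share 60 exonic bases on opposite strands, and *Zic4* shares 468 with Gm37477. Since the strand setting of the counting is not stated, reads from these bases cannot be assigned to one gene.

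The family resemblance is visible in the coding exons, and the longest exact stretch of the expressed pair is shown because reads inside it fit both members. *Zic2* and *Zic5* share 26 bases, given 5′ to 3′ as they occur in the transcripts of both genes.
Zic2 and Zic5: cgctccgagaacctcaagatccacaa
The stretch lies in the coding exons at chr14:122476708-122476733 and chr14:122463906-122463931. No run of 50 bases was shared between the transcripts of any 2 of the 4 members.

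RefSeq promoters (250 bases before to 50 after a start, GRCm38.p6) were held for 3 of the 4 members, *Zic1*, *Zic4* and *Zic5*. The part of the *Zic5* promoter upstream of both its RefSeq and GENCODE starts (chr14:122465678-122465908, minus strand, 231 bases, 62.3% G or C) is shown because *Zic5* was called between E5.5 and E6.5 in both genotypes.
Zic5 promoter: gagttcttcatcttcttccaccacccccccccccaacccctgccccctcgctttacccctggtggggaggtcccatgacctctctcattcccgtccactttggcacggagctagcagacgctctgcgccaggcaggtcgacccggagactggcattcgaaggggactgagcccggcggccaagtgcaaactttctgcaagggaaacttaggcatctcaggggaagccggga
None of the 3 promoters held the STAT motif TTCNNNGAA, the ZIC motif CCTGCTG or the GLI motif GACCACCCA on either strand. In all 32851 promoters of that length, 8.30% held the STAT motif, 10.51% the ZIC motif and 0.253% the GLI motif. The printed sequence carries no capitals for this reason, and the absence says only that these letters are not in these windows.

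Total counts ranged from 22941210 to 79013960 in the epiblast libraries and from 63445877 to 127583699 in the EpiSC libraries. Several libraries stood apart from their groups. The library labelled E5.5 null replicate 1 had 24 counts of the epiblast factor *Pou5f1* and none of *Fgf5*, but 10027 of *Elf5* and 3671 of *Cdx2*, which mark extraembryonic ectoderm. E7.5 WT replicate 3 had 6125 counts of *Fgf5*, a gene of the primed epiblast, or 158 CPM (counts normalised to library size), against at most 8.28 CPM in the other E7.5 WT libraries, while the E7.5 null libraries lay between 79.2 and 137 CPM. E6.5 WT replicate 3 and E6.5 null replicate 3 held summed visceral endoderm markers of 5784 and 6794 CPM, the highest of their groups, and E6.5 null replicate 1 held extraembryonic ectoderm markers of 1682 CPM. *Stat3* itself was lower in null libraries, at 1.34 ± 0.142 CPM (SD, n = 3) against 13.5 ± 5.76 (n = 9) at E7.5 (edgeR log2 fold change −3.31, adjusted p = 0.00808). At E6.5 the *Stat3* levels of the genotypes overlapped, with up to 8.10 CPM in null and down to 5.66 CPM in WT libraries.

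*Zic2* and *Zic5* were expressed in every library, and *Zic1* and *Zic4* were at or near 0 throughout. Levels are given as CPM after TMM normalisation, separately for epiblasts and EpiSCs, which were also prepared with different kits, so the 2 sets are placed side by side only. Per kilobase of exonic sequence, *Zic2* averaged 75.1 ± 17.1 CPM (SD, n = 9) and *Zic5* 27.5 ± 6.02 in E6.5 WT epiblasts. *Zic2* exceeded *Zic5* on this scale in the mean of every group. In bulk epiblasts, fewer expressing cells and less RNA per cell cannot be told apart.

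At E5.5, *Zic2* was measured at 78.3 and 137 CPM in the 2 WT libraries and at 26.8, 81.8, 81.7 and 85.02 CPM in the 4 null libraries. The lowest value belonged to the library labelled null replicate 1, and the other null values lay within the WT range. *Zic5* was at 36.9 and 48.1 CPM in WT and at 45.9, 35.9, 40.1 and 67.5 CPM in null libraries. The genotypes overlapped for both genes.

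At E6.5, WT *Zic2* had a lowest value of 89.2, a median of 235 and a highest value of 249 CPM. The lowest was WT replicate 3, and the other 8 WT libraries lay above every null library. E6.5 null *Zic2* ran from 62.9 through a median of 167 to 195 CPM. *Zic5* ran from 65.4 through 143 to 160 CPM in WT and from 77.0 through 111 to 160 CPM in null epiblasts, and here the ranges nearly coincided.

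At E7.5 the order of the genotypes was the opposite. *Zic2* was at 262, 275 and 219 CPM in the 3 null libraries, and *Zic5* at 169, 175 and 143 CPM. WT *Zic2* ran from 65.0 through a median of 95.5 to 261 CPM, and WT *Zic5* from 35.1 through 58.0 to 161 CPM. The highest WT value of both genes was that of replicate 3, and the other 8 WT libraries lay below every null library. In the EpiSC lines, *Zic2* was at 420 CPM in both WT and at 508 and 540 CPM in null lines, and *Zic5* was at 317 and 304 CPM in WT and at 371 and 386 CPM in null lines. The 2 null lines exceeded the 2 WT lines for both genes, an order for which the exact permutation test gave p = 0.333, the smallest possible. The share of all genes whose groups separate was not computed for this or any other comparison. Separations of groups given here and below therefore describe these values only.

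**Figure D1:**
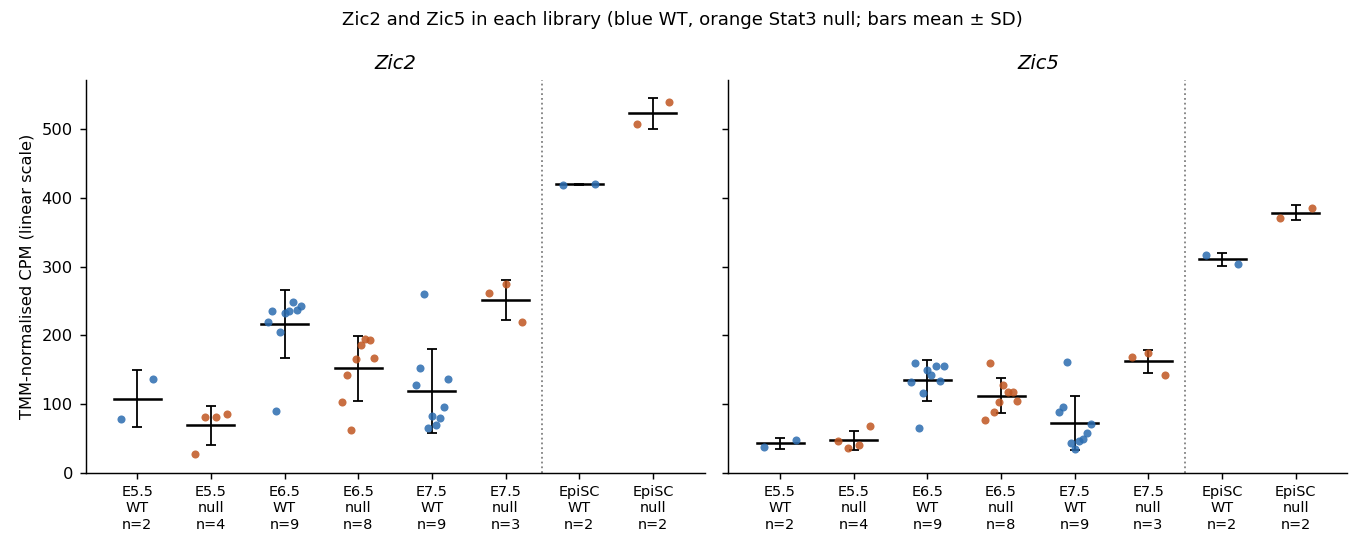
TMM-normalised CPM of *Zic2* (left) and *Zic5* (right) on a linear axis, by group; each point is 1 library, horizontal lines are means and error bars are SD, and the dotted line separates the EpiSC lines, which were normalised separately. The 3 E7.5 null libraries lie between 219 and 275 CPM for *Zic2*, above 8 of the 9 E7.5 WT libraries.

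Ordered by mean, *Zic2* was lowest in E5.5 null epiblasts (68.8 ± 28.1 CPM, n = 4), then E5.5 WT (107.6 ± 41.6, n = 2), E7.5 WT (119 ± 61.6, n = 9), E6.5 null (152 ± 47.1, n = 8), E6.5 WT (216 ± 49.4, n = 9) and E7.5 null (252 ± 29.1, n = 3). The step from E6.5 null to E6.5 WT was the only one between neighbours larger than the greater of their SDs. For *Zic5* the order was E5.5 WT (42.5 ± 7.93 CPM), E5.5 null (47.4 ± 14.03), E7.5 WT (72.1 ± 39.3), E6.5 null (112 ± 25.5), E6.5 WT (134 ± 29.4) and E7.5 null (162 ± 17.1). Here the step from E7.5 WT to E6.5 null was the only one between neighbours beyond the greater SD.

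The first comparison asked how the genes changed between stages within a genotype. *Zic5* rose from E5.5 to E6.5 in WT epiblasts, with a log2 fold change of 1.68 ± 0.285 (SE; edgeR adjusted p = 0.00399). The 9 E6.5 WT libraries lay above both E5.5 WT libraries. A rise of *Zic5* was also found among the null epiblasts (log2 fold change 1.22 ± 0.213, edgeR adjusted p = 0.00809), and again the stages did not overlap. *Zic2* did not pass the test in either genotype, with log2 fold changes of 1.03 ± 0.332 in WT (edgeR adjusted p = 0.0744) and 1.12 ± 0.337 in null epiblasts (edgeR adjusted p = 0.0840). A gene was called when its absolute log2 fold change exceeded 1 and its adjusted p was under 0.05. Of the members, 1 of the 2 tested was called in each genotype, against a background of 5.15% of the genes tested in WT (2.52% called higher) and 1.98% in null epiblasts (1.22% called higher).

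These stage changes depended in part on single libraries. In WT epiblasts, *Zic5* was no longer called without E5.5 WT replicate 1, which left 1 library at that stage (log2 fold change 1.46, edgeR adjusted p = 0.129). *Zic2* was called without E6.5 WT replicate 3 (1.08, edgeR adjusted p = 0.000601). In null epiblasts *Zic2* was called without E6.5 null replicate 3 (1.23, edgeR adjusted p = 0.0257). Without the library labelled E5.5 null replicate 1, the *Zic2* difference of mean log2 CPM was 0.79 (exact permutation test, two-sided, p = 0.0606), compared with 1.20 (p = 0.0141) with all libraries. Visceral endoderm markers moved the other way, with summed levels of 5719 to 7016 CPM in E5.5 WT and 67.03 to 5784 CPM in E6.5 WT libraries. Their part in the result was not tested.

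From E6.5 to E7.5 the fitted changes were negative in WT and positive in null epiblasts, where they did not pass the test. In WT epiblasts both genes were lower at E7.5, with log2 fold changes of −0.86 ± 0.251 for *Zic2* (edgeR adjusted p = 0.0177) and −0.89 ± 0.254 for *Zic5* (edgeR adjusted p = 0.0148). Both passed the threshold on p and stayed inside the fold threshold, so 0 of the 2 tested members were called against a background of 8.83% (3.09% called lower), and DESeq2 called neither. Exact permutation tests of log2 CPM gave p = 0.00461 for *Zic2* and p = 0.00263 for *Zic5* (two-sided, adjusted p = 0.0461 and 0.0395 over 30 tests). Without E7.5 WT replicate 3 both were called, at −1.09 (edgeR adjusted p = 0.000524) and −1.13 (edgeR adjusted p = 0.000316).

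In null epiblasts the fitted changes from E6.5 to E7.5 were positive but did not pass the test, at 0.73 ± 0.261 for *Zic2* (edgeR adjusted p = 0.437) and 0.54 ± 0.180 for *Zic5* (edgeR adjusted p = 0.391). The 3 E7.5 null libraries lay above the 8 E6.5 null libraries for *Zic2*. *Zic1*, the third member tested, was at 1.30 ± 2.02 (edgeR adjusted p = 0.995). edgeR called 0 of the 3 members, against a background of 0.103%. Both *Zic2* and *Zic5* had an unadjusted p under 0.05, and DESeq2 called neither. The difference between the genotypes in this stage change was itself tested as an interaction, which came to 1.59 ± 0.407 for *Zic2* (edgeR adjusted p = 0.0623) and 1.42 ± 0.372 for *Zic5* (edgeR adjusted p = 0.0643). Neither was called, against a background of 0.443%. DESeq2 called both (adjusted p = 0.00715 and 0.0122), as did edgeR without E7.5 WT replicate 3 (adjusted p = 0.00262 and 0.00120). In the null step, 1 of 12 visceral endoderm (median −3.60), 0 of 9 extraembryonic ectoderm (median −2.05) and 5 of 8 epiblast markers (median 0.12) were positive. In the interaction these were 0 of 12 (median −4.86), 0 of 10 (median −3.83, 2 called lower) and 8 of 8 (median 1.62). The part of these markers in the ZIC values was not tested.

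**Figure D2:**
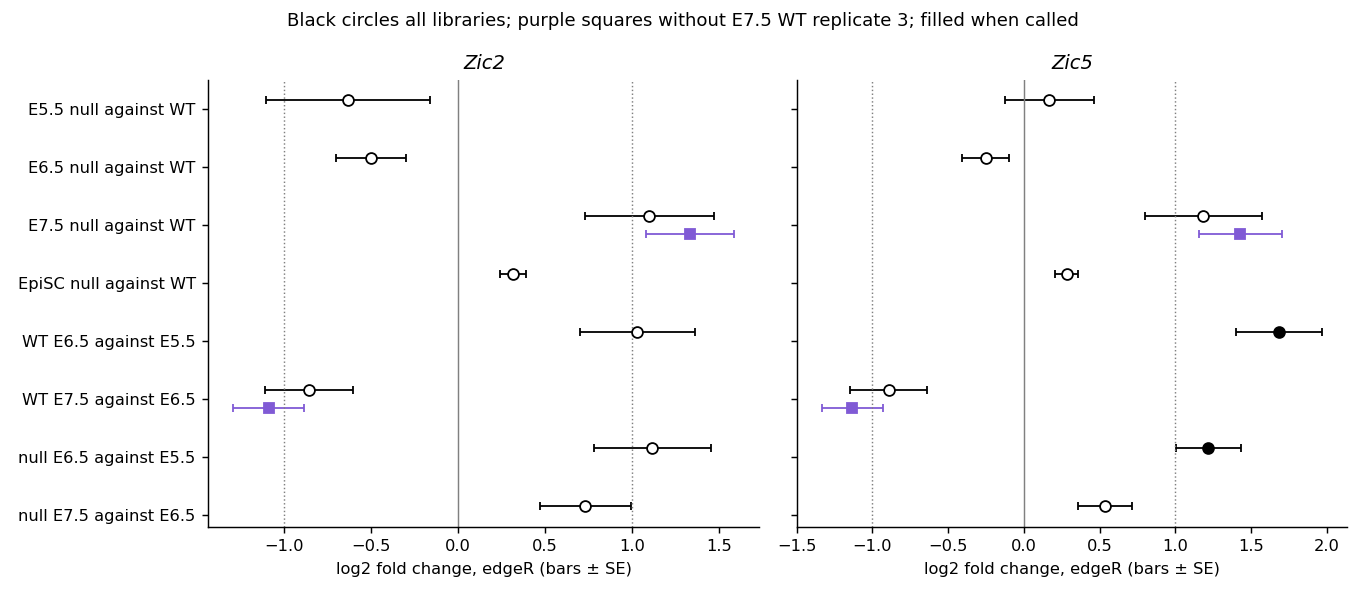
edgeR log2 fold changes of *Zic2* (left) and *Zic5* (right) for the 8 comparisons, with bars of 1 SE; circles use all libraries, squares leave out E7.5 WT replicate 3, symbols are filled where the gene was called, and dotted lines mark the fold threshold. *Zic5* was called from E5.5 to E6.5 in both genotypes. Among the fits shown, the comparisons that hold E7.5 WT reached a call for both genes only without that replicate, which was singled out after its values were seen. Sample quality weights, not shown, called both genes in these comparisons with all libraries kept.

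The second comparison asked how the genotypes differed at each stage. At E7.5 the null epiblasts had 2.12-fold the mean *Zic2* CPM and 2.25-fold the mean *Zic5* CPM of WT. The log2 fold changes were 1.10 ± 0.369 (edgeR adjusted p = 0.126) and 1.18 ± 0.387 (edgeR adjusted p = 0.118). Neither of the 2 tested members was called by edgeR or DESeq2, although both had an unadjusted p under 0.05, against a background of 1.17% of genes (0.0813% called higher in null). The exact permutation test gave p = 0.00909 for each gene (two-sided, adjusted p = 0.0545), where 0.00455 is the smallest p that 3 against 9 libraries allow. Without E7.5 WT replicate 3 both genes were called, with log2 fold changes of 1.33 ± 0.254 (edgeR adjusted p = 0.00535) and 1.43 ± 0.274 (edgeR adjusted p = 0.00543).

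Markers of other tissues differed between these groups too. Summed visceral endoderm markers, 12 genes, ran from 411 to 4155 CPM in E7.5 WT and from 64.0 to 307 CPM in null libraries. The 10 extraembryonic ectoderm markers ran from 196 to 835 CPM in WT and from 109 to 211 CPM in null libraries. The 8 epiblast markers were highest in null, at 4516 to 6144 CPM, while WT libraries ran from 1139 to 6011 CPM, the last being replicate 3. In the edgeR fit all 8 epiblast markers had positive log2 fold changes with a median of 1.32, and none was called. Depth differed as well, with total counts of 37143484 to 41655234 in E7.5 null and 25793920 to 39477197 in E7.5 WT libraries. The deepest WT library was replicate 3, followed by replicate 6 at 36002498, so the null libraries and WT replicate 3 were deeper than the rest. The part of tissue composition and of depth in the ZIC difference was not tested.

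At E6.5 the fitted differences were negative. *Zic2* had a log2 fold change of −0.50 ± 0.203 (edgeR adjusted p = 0.513, exact permutation p = 0.0469, adjusted over 30 tests to 0.108) and *Zic5* of −0.25 ± 0.156 (edgeR adjusted p = 0.753). No member was called among the 2 tested, and the background was 0% as well, since edgeR called none of 17095 genes, although 1414 had an unadjusted p under 0.05 and DESeq2 called 30. The E6.5 libraries fell into 2 depth classes, with total counts above and below 40000000. Among the libraries below it, *Zic2* differed by −0.37 (edgeR adjusted p = 0.0333) and *Zic5* by −0.32 (edgeR adjusted p = 0.0887), and among those above it by −0.81 and −0.12, where neither passed. The direction was the same at both depths, and neither reached the fold threshold. Without E6.5 WT replicate 3 the permutation tests gave −0.69 for *Zic2* (exact p = 0.000155) and −0.38 for *Zic5* (exact p = 0.0101). Extraembryonic ectoderm markers ran from 178 to 1682 CPM in null and from 107 to 492.9 CPM in WT libraries. Visceral endoderm markers had a median sum of 848 CPM in null and 172 CPM in WT libraries, and 12 of 12 had positive log2 fold changes (median 1.17), while 7 of the 8 epiblast markers were negative. None of these markers was called, and their part in the ZIC values was not tested.

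At E5.5 the log2 fold changes were −0.63 ± 0.469 for *Zic2* and 0.17 ± 0.294 for *Zic5* (edgeR adjusted p = 0.999 for both). For *Zic2* the value ran from −0.97 without WT replicate 1 to −0.18 without WT replicate 2, and was −0.37 without the library labelled null replicate 1. None of the 2 tested members was called and the background was 0% of 18690 genes, with 467 at an unadjusted p under 0.05 and 31 called by DESeq2. The smallest p that 4 against 2 libraries allow in the exact permutation test is 0.0667. In the EpiSC lines *Zic2* differed by 0.32 ± 0.0747 (edgeR adjusted p = 0.240) and *Zic5* by 0.28 ± 0.0744 (edgeR adjusted p = 0.276), with null above WT in 2 of 2 lines. Neither member was called by edgeR or DESeq2, although both had an unadjusted p under 0.05, against a background of 0.106%. The exact permutation test cannot go below 0.333 with 2 against 2 lines. The genotype comparisons and the stage comparisons share libraries, so they are not independent of each other.

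*Zic2* and *Zic5* were next compared within a library, which removes the normalisation between libraries. In E6.5 WT epiblasts the ratio of *Zic5* to *Zic2* counts ran from 0.563 through a median of 0.625 to 0.733, and in E7.5 WT epiblasts from 0.428 through 0.619 to 0.685. The 3 E7.5 null libraries fell between 0.636 and 0.650. The medians thus lay close together at the 2 later stages. More *Zic5* than *Zic2* counts were found in 3 libraries, namely the library labelled E5.5 null replicate 1, with 1664 *Zic5* and 970 *Zic2* counts, E6.5 null replicate 2, with 6768 and 5998, and E6.5 null replicate 3, with 3874 and 2751. The latter 2 had the fewest genes detected of the 35 epiblast libraries (15531 and 15171), and the first the fewest of its group (18183). The part of library quality was not tested. The lowest ratios were 0.351 in E5.5 WT replicate 2, 0.428 in E7.5 WT replicate 5 and 0.439 in E5.5 null replicate 2.

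Of 8 comparisons of this log2 ratio, only WT E6.5 against E5.5 had an unadjusted p under 0.05, with a difference of 0.62 (exact permutation test, two-sided, p = 0.0182, the smallest that 9 against 2 allow, adjusted p = 0.145). At E7.5 the null epiblasts averaged −0.64 ± 0.0162 (SD, n = 3) and the WT epiblasts −0.74 ± 0.215 (n = 9), a difference of 0.10 (exact permutation p = 0.5). At E6.5 the difference of null from WT was 0.28 (exact permutation p = 0.0872).

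*Pou5f1*, which encodes the pluripotency factor OCT4, served as a reference gene within each library. Its mean was 610 CPM in E6.5 WT and 312 CPM in E7.5 WT epiblasts. Level per cell and amount of epiblast cannot be told apart, so it is no measure of epiblast amount. By Spearman's rho it was the gene most like both *Zic2* and *Zic5* over the 35 epiblast libraries. The ratio was added after seeing the data, so small differences were likely beforehand and bear on no cause. The log2 ratio of *Zic2* to *Pou5f1* counts was −1.42 ± 0.0574 in E7.5 null (n = 3) and −1.40 ± 0.254 in E7.5 WT epiblasts (n = 9), a difference of −0.025 (exact permutation p = 0.882). For *Zic5* to *Pou5f1* the values were −2.06 ± 0.0484 and −2.13 ± 0.259, a difference of 0.077 (exact permutation p = 0.659). At E6.5 the *Zic2* to *Pou5f1* difference was −0.016 (exact permutation p = 0.921). The *Zic5* to *Pou5f1* difference at E6.5 was 0.27 (−1.94 ± 0.346 in null and −2.21 ± 0.209 in WT, exact permutation p = 0.0673, adjusted p = 0.339), and ran from 0.18 to 0.32 when 1 library was left out. *Pou5f1* itself had an edgeR log2 fold change of 1.13 ± 0.370 at E7.5 (adjusted p = 0.121) and −0.43 ± 0.177 at E6.5 (adjusted p = 0.522), near those of *Zic2*. The library labelled E5.5 null replicate 1 had 40.4 *Zic2* counts for each *Pou5f1* count, whereas the highest ratio of any E6.5 or E7.5 library was 0.544.

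**Figure D3:**
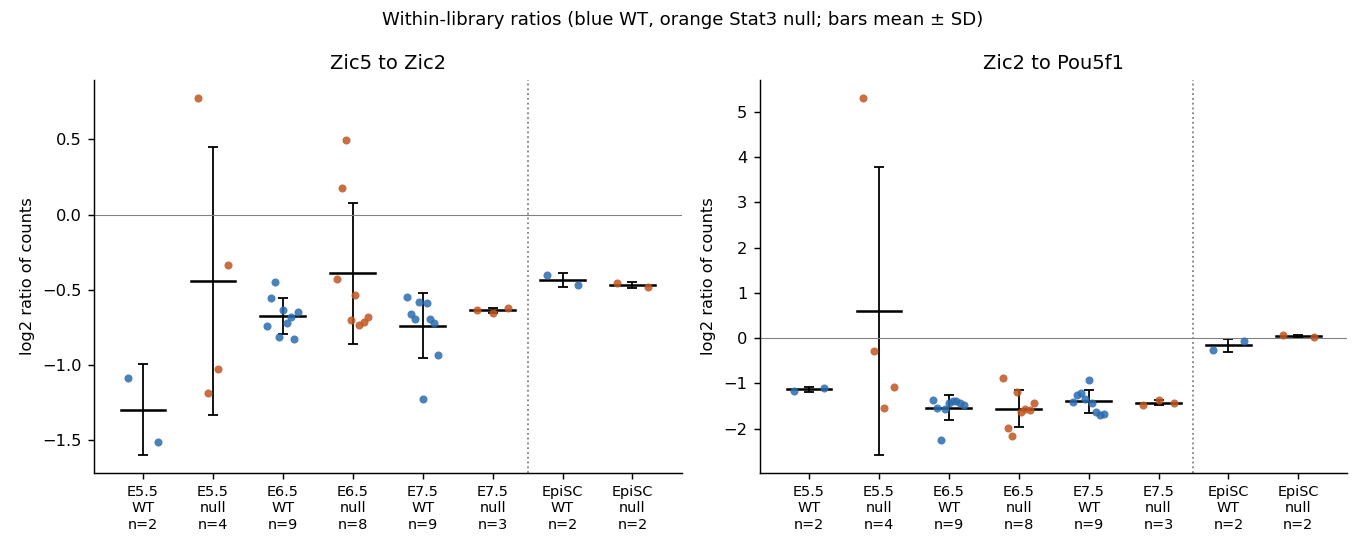
Log2 ratios of counts within each library, *Zic5* to *Zic2* (left) and *Zic2* to *Pou5f1* (right); points are libraries, lines are means and bars SD. At E7.5 the *Zic2* to *Pou5f1* means are −1.42 in null and −1.40 in WT, and the point far above the others at E5.5 is the library labelled null replicate 1.

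Across libraries of 1 group, *Zic2* and *Zic5* were correlated in 2 of the 3 groups with at least 6 libraries. In E7.5 WT epiblasts (n = 9) Pearson's r was 0.950 (exact permutation p = 0.000386, adjusted p = 0.00116) and Spearman's rho was 0.883 (exact permutation p = 0.00307, adjusted p = 0.00923). Without the 2 libraries farthest from the median *Zic2* level, r was 0.842 (exact permutation p = 0.0198) and rho was 0.750 (exact permutation p = 0.0663). In E6.5 WT epiblasts (n = 9) r was 0.972 (exact permutation p = 0.00106, adjusted p = 0.00159) and rho was 0.733 (exact permutation p = 0.0311, adjusted p = 0.0467), but without the 2 farthest libraries, replicates 3 and 4, r was 0.631 (exact permutation p = 0.128) and the relation no longer passed. In the 6 E6.5 WT libraries under 40000000 counts, which leave out replicates 1, 2 and 3, r was 0.902 (exact permutation p = 0.0278) and rho was 0.771 (exact permutation p = 0.103). In E6.5 null epiblasts (n = 8) r was 0.568 (exact permutation p = 0.156) and rho was 0.524 (exact permutation p = 0.197), and r was −0.471 without the 2 farthest. The *Zic1* and *Zic4* pair was too sparse for this test. The share of other gene pairs correlated this closely was not computed, so these values are not particular to the pair. Summed epiblast markers varied within the groups, from 1139 to 6011 CPM in E7.5 WT and from 4709 to 7582 CPM in E6.5 WT libraries. Their part in the correlation was not tested.

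Over all 35 epiblast libraries, the gene most like *Zic2* among 24125 was its neighbour 2610035F20Rik, with a Pearson's r of log2 CPM of 0.928. Bend3 (0.923), Slc35d3 (0.907), Mycn (0.892) and Zfp36l2 (0.890) followed. *Zic5* ranked 19th at 0.855. For *Zic5* the nearest genes were 2010111I01Rik (0.907), Cdk8 (0.904), Ugt8a (0.900), Ipo5 (0.882) and Serbp1 (0.876), and *Zic2* ranked 13th. These values are descriptive, since all libraries, groups and depths enter them together. Without the library labelled E5.5 null replicate 1, Bend3 ranked first for *Zic2* (0.905) and 2610035F20Rik second (0.904), and *Pou5f1* ranked first for *Zic5* (0.916). *Pou5f1* then ranked 3rd (0.896) and *Zic5* 5th (0.888) for *Zic2*, and *Zic2* ranked 9th for *Zic5*. By Spearman's rho over the 35 libraries, *Pou5f1* ranked first for both genes (0.939 and 0.931), and *Zic2* and *Zic5* ranked 4th for each other.

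2610035F20Rik was at far lower levels than *Zic2*. It ran from 4.09 to 6.59 CPM in E5.5 WT, from 10.1 to 28.8 in E6.5 WT, from 3.53 to 18.0 in E7.5 WT and at 19.4, 25.6 and 18.9 CPM in E7.5 null libraries, so 9 of 9 WT values lay below the 3 null values. It rose from E5.5 to E6.5 in WT epiblasts (log2 fold change 1.86 ± 0.378, edgeR adjusted p = 0.00920) and fell from E6.5 to E7.5 (−1.09 ± 0.260, edgeR adjusted p = 0.00372). The E7.5 null to WT difference of 1.28 ± 0.355 did not pass (edgeR adjusted p = 0.0664). It shares no exonic base with *Zic2* in the annotation, but the strand setting is not stated, so reads between the opposed starts may not be separable.

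**Figure D4:**
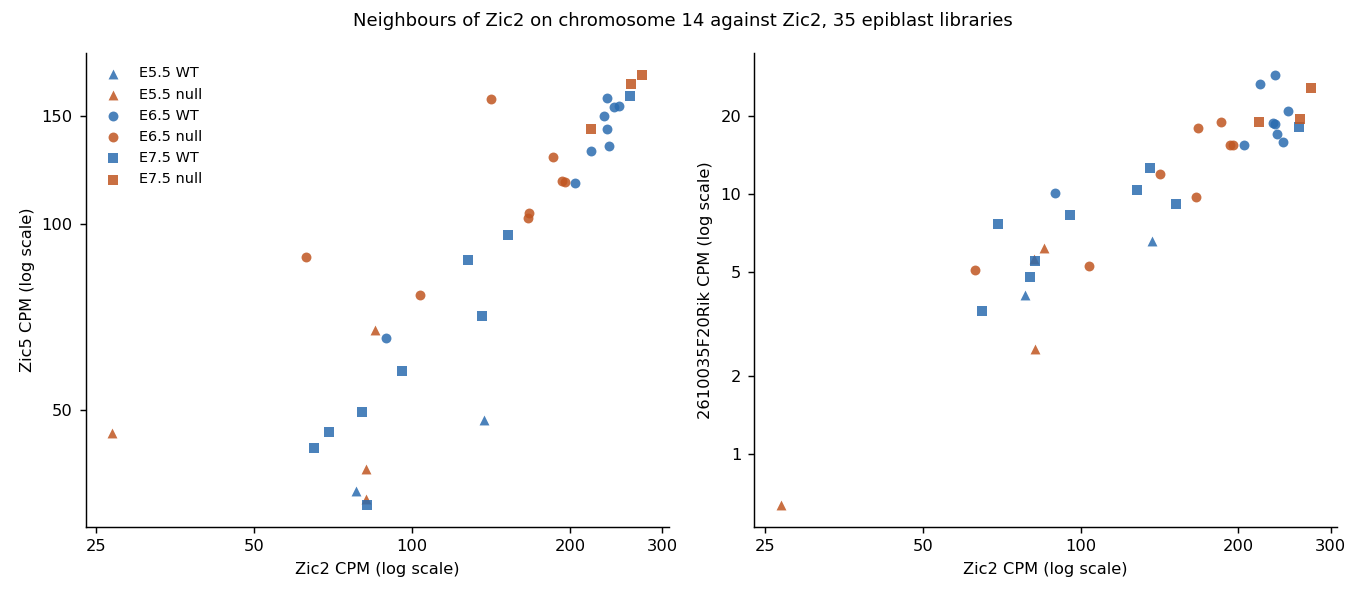
CPM of *Zic5* (left) and of 2610035F20Rik (right) against CPM of *Zic2* in the 35 epiblast libraries, on log axes; triangles are E5.5, circles E6.5 and squares E7.5, blue WT and orange *Stat3* null. Both rise with *Zic2* (Pearson's r of log2 CPM 0.855 and 0.928), and the lowest *Zic2* point is the library labelled E5.5 null replicate 1.

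*Zic1* had counts in only a few libraries. At E7.5 it was counted in 3 of 3 null libraries, at 13, 11 and 10 counts, and in 1 of 9 WT libraries, replicate 9, at 36 counts. At E6.5 it was counted in 1 of 8 null libraries (26 counts) and 1 of 9 WT libraries (9 counts), and at E5.5 in 1 of 2 WT (13 counts) and 0 of 4 null libraries. A count of 0 allows up to 3 counts, on average 0.0990 CPM in an E7.5 WT library, for counting error only. The exact permutation test of E7.5 null against WT gave p = 0.0182 (two-sided, adjusted p = 0.0682), and the mean level was 0.287 ± 0.0428 CPM (n = 3) in null and 0.144 ± 0.430 CPM (n = 9) in WT. edgeR did not test *Zic1* here, since it did not pass the filter on low counts. The nearest genes to *Zic1* by Pearson's r were Gm29155 (0.840), Areg (0.705), RP23-99G15.1 (0.699), Cyp4b1 (0.695) and Gm15262 (0.682), and so few counts make these weak values.

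*Zic4* was counted in 3 of 35 epiblast libraries, E6.5 null replicate 6 at 37 counts and E6.5 WT replicates 4 and 7 at 6 and 2 counts. None of these libraries had *Zic1* counts. In the EpiSC lines *Zic1* had 8 and 12 counts in WT lines and none in null lines, and *Zic4* had 3 and 0 counts in WT and 3 and 11 in null lines. Neither gene passed the low-count filter there. Both WT levels of *Zic1*, 0.0813 and 0.0935 CPM, lay above the levels that 3 counts give in the null lines, 0.0469 and 0.0327 CPM, but 2 lines against 2 allow no exact permutation p below 0.333.

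Lists of genes that act with or beside the ZIC family were described over the same fits. Over all genes, 5.74% were called higher and 3.09% lower in WT E7.5 against E6.5, and 0.0813% higher and 1.09% lower in E7.5 null against WT. From E6.5 to E7.5 in WT epiblasts, 3 of 6 relatives of the GLI and GLIS type rose, namely the Hedgehog effectors *Gli2* (log2 fold change 1.22) and *Gli1* (1.22) and the related *Glis1* (1.89). Of 14 anterior neural and ectoderm factors tested, 6 rose and 3 fell. *Gbx2* (7.51) and the forebrain factor *Six3* (3.47) rose, and the anterior epiblast factor *Otx2* fell (−1.41, edgeR adjusted p = 0.000313). The list name is a label and does not give the region in which each member, such as *Gbx2*, acts. Of 8 neural plate border and crest factors tested, 7 rose, among them *Tfap2a* (3.67), *Msx1* (2.74) and *Dlx5* (6.24). The medians of these lists were 1.22, 1.61 and 3.54, where the median of all genes was 0.0066 and the *Zic2* and *Zic5* values were below 0.

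Of 8 paraxial mesoderm factors tested in that comparison, 5 rose, including *Foxc1* (7.06), the Notch ligand *Dll1* (5.65) and *Foxc2*, which had 0 counts in every E6.5 WT library. Of 14 midline and forebrain patterning genes, 1 rose, the BMP antagonist *Chrd* (2.46), and 3 fell, among them *Nodal* (−2.87), a TGF-beta family signal, and *Fgf8* (−1.62). Of the 8 epiblast markers, 5 fell, including the DNA methyltransferase *Dnmt3b* (−1.41), the Nodal co-receptor *Tdgf1* (−4.36) and *Utf1* (−2.69). The direction of *Zic2* and *Zic5* at this step was that of the epiblast markers, whose median was −1.31. Other tissues' markers were higher at this step: 3 of 12 visceral endoderm markers rose (12 of 12 positive, median 0.97), as did 4 of 6 extraembryonic ectoderm markers tested (median 1.57). Their part in the ZIC values was not tested.

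For the step from E5.5 to E6.5, 5.15% of all genes were called in WT (2.52% higher) and 1.98% in null epiblasts (1.22% higher). In WT epiblasts, *Gli3* was the 1 GLI-type relative of 6 that rose (1.96 ± 0.229, edgeR adjusted p = 0.000631). The Hedgehog transducer *Smo* (1.25) and the Hedgehog co-receptor *Gas1* (3.18) rose among 14 midline genes tested. Among 15 anterior factors, *Zfp521* (2.91) and *Sall2* (1.33) rose and *Sox21* (−6.21) fell, among 8 border factors *Foxd3* (1.69) rose and *Tfap2a* (−3.84) fell, and among the 8 epiblast markers *Pou5f1* (1.404) and *Nanog* (3.11) rose. Of the visceral endoderm markers 1 of 12 fell, and of the extraembryonic ectoderm markers 2 of 10. In null epiblasts the Hedgehog receptor *Ptch1* (1.45, edgeR adjusted p = 0.0116) was the 1 midline gene that rose, *Sox2* (1.89) was the 1 anterior factor, and *Sox2* and *Dnmt3b* (1.13) were the 2 epiblast markers. At E7.5, null epiblasts were lower than WT for *Lhx5* (−2.75), the germ cell regulator *Prdm1* (−2.51, from the border and crest list) and the BMP antagonist *Nog* (−2.78). *Shh*, the midline Hedgehog ligand, and the paraxial factor *Msgn1* were also called lower, and both had 0 counts in each of the 3 null libraries and in E7.5 WT replicate 3. Of the 12 visceral endoderm markers 3 were lower in E7.5 null epiblasts, *Sox17* (−1.89), *Rhox5* (−2.82) and *Afp* (−3.67), and of 9 extraembryonic ectoderm markers tested 2 were lower, *Krt18* (−1.62) and *Krt8* (−1.86), while no maternal or blood marker was called. No gene of these lists was called between genotypes at E5.5, at E6.5 or in EpiSCs, nor between E6.5 and E7.5 in null epiblasts.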

How the data were processed

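Individual epiblasts and EpiSC lines were profiled by bulk RNA-seq. The authors deposited raw read counts per gene in 2 tables, and the submitters' processing notes name Trim Galore, HISAT2, StringTie and GRCm38/mm10. The strand setting and annotation release are not given in the sources used here. Genotype and stage were taken from the labels, and 0 columns of other samples were left out. Of 47643 genes, 47224 matched GENCODE M21, which gave positions and exonic lengths. Counts were tested with edgeR 4.0.16 (quasi-likelihood, robust, TMM, filterByExpr with a minimum count of 10 and total of 15, two-sided, Benjamini-Hochberg over all genes tested) in R 4.3.3. Levels on the log2 scale used a prior count of 2, and ratios of counts a pseudocount of 0.5. Single values were compared by exact permutation tests over libraries. The alternatives were DESeq2 1.42.0, other filters and normalisations, sample quality weights from limma 3.58.1, a replicate block, depth classes and leaving out libraries. The edgeR step was tested on simulated data. The members and gene lists were chosen with earlier results of these data known, so they give no independent support. The genes named are the members, *Stat3*, the 5 genes most like each member by Pearson's r, and up to 3 called genes with the smallest p from each list. The neighbour 2610035F20Rik and *Pou5f1* were added after their values were seen. Counting error limits precision mainly for *Zic1* and *Zic4*, where intervals and limits cover that error alone. Depth also differed between the E7.5 groups, and its part was not tested. Some stretches shared between members are not reported here.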

Additional observations from a re-analysis of the deposited data

Results flagged for a closer look

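The gap of the highest or lowest library to its nearest neighbour was compared with the whole range in 17 sets of values, each a member's level or the *Zic5* to *Zic2* ratio in 1 group of 4 to 10 libraries. Chance marks about 1 in 20 such sets, except that any set with a single library above 0 is marked by construction. *Zic2* stood apart in the library labelled E5.5 null replicate 1, with a log2 CPM of 4.75 against 6.35 in the nearest. In E6.5 WT replicate 3, which also had the highest visceral endoderm markers of its group, *Zic2* was at 6.48 (nearest 7.68) and *Zic5* at 6.03 (nearest 6.87) on the log2 CPM scale. The part of those markers was not tested. E7.5 WT replicate 3 was not marked for *Zic2* or *Zic5*. *Zic1* was counted in a single library of 3 groups, which marks it by construction, with 9 counts in E6.5 WT replicate 9, 26 counts in E6.5 null replicate 8 and 36 counts in E7.5 WT replicate 9. *Zic4* had 6 counts in E6.5 WT replicate 4 (nearest 2) and 37 counts in E6.5 null replicate 6 (others 0, so again by construction).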

How the results depend on the processing

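The number of ZIC members called was 1 from E5.5 to E6.5 in each genotype and 0 elsewhere. It became 2 with sample quality weights for E7.5 null against WT, for each stage step of WT epiblasts, for null E6.5 against E5.5 and for the interaction. It became 2 with DESeq2 for null E6.5 against E5.5 and the interaction, with a mean count of at least 50 for the interaction, with all 35 libraries in 1 fit for null E6.5 against E5.5, and with E6.5 libraries under 40000000 total counts for E6.5 against E5.5 in both genotypes. Leaving out 1 library gave 0 to 2 members for E7.5 null against WT, both WT stage steps and the interaction (where only the 3 E7.5 null libraries and E7.5 WT replicate 3 were left out in turn), and 1 to 2 for null E6.5 against E5.5; the libraries that decided these are named beside the results. The causes were not tested. The replicate block kept only libraries whose number occurred in each group compared. It held replicates 1 and 2 for WT E6.5 against E5.5 and 1 to 4 for null E6.5 against E5.5. For E7.5 null against WT and for the interaction it held replicates 1, 2 and 3, among them E7.5 WT replicate 3. All were kept for WT E7.5 against E6.5. Where libraries were left out, that and the blocking cannot be told apart. With the block, the count was 0 for E6.5 against E5.5 in both genotypes and 1 for WT E7.5 against E6.5. The E7.5 null to WT log2 fold changes were 0.56 for *Zic2* and 0.55 for *Zic5*. Deviations of same-numbered libraries correlated from −0.173 to 0.284 over all comparisons, and from 0.022 to 0.152 in the 8 pairs of E6.5 null against WT. Differently numbered libraries were not compared, so whether the numbers pair libraries cannot be told. At E6.5, replicates 1, 2 and 3 of both genotypes were the libraries above 40000000 counts. EpiSC lines share no numbers.

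The *Zic5* log2 fold change at E5.5 was −0.022 with the replicate block, on replicates 1 and 2 of each genotype. It ran from −0.038 to 0.37 when 1 library was left out. In permutation tests, *Zic2* at E6.5 was −0.51 (exact p = 0.0751) with total counts in place of TMM, *Zic5* at E6.5 was −0.38 without E6.5 WT replicate 3, and *Zic2* in null E6.5 against E5.5 was 0.79 without E5.5 null replicate 1. Leaving out 1 library, the log2 ratio of *Zic5* to *Zic2* ran from 0.16 to 0.33 for E6.5 null against WT, from 0.41 to 0.83 for WT E6.5 against E5.5 and from −0.20 to 0.46 for null E6.5 against E5.5, and that of *Zic2* to *Pou5f1* from −0.11 to 0.070 at E6.5 and from −0.063 to 0.035 at E7.5. Without the 2 farthest libraries the correlation of *Zic2* and *Zic5* was 0.631 in E6.5 WT and −0.471 in E6.5 null epiblasts. Of the 5 genes most like each member, 3 (*Zic2*) and 2 (*Zic5*) were shared with Spearman's rho, and 2 for *Zic2* without E5.5 null replicate 1. Total counts, depth classes, the ratios to *Pou5f1* and the libraries left out of permutation tests were chosen after seeing the data. DESeq2 called more genes than edgeR in all 9 comparisons, for example 1027 against 231 for E7.5 null against WT, 2050 against 1070 for WT E6.5 against E5.5, 2331 against 1518 for WT E7.5 against E6.5, 1167 against 363 for null E6.5 against E5.5, 321 against 20 for null E7.5 against E6.5, 215 against 22 in EpiSCs and 639 against 98 for the interaction. Sample quality weights called 1198 genes for E7.5 null against WT and 1499 for the interaction. The replicate block, on replicates 1, 2 and 3 of each group only, called 0 in both.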
